A study of Mus musculus with 9 samples.

Results

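Lymph nodes keep leukocytes alive with a small set of secreted and membrane-bound factors, many of them made by fibroblastic reticular cells (FRCs), the fibroblasts that build the node's supporting network. The 8 genes described here, Il7, Il15, Il34, Csf1, Kitl, Tnfsf13b, Flt3l and Il33, encode such factors and were chosen by name from the 19057 named genes on the array. All probes that the platform annotation assigns to them were taken, 18 of the 45281 probes on the array. Il7 had 3 probes, Il15 had 5, Kitl and Tnfsf13b had 3 each, and Il34, Csf1, Flt3l and Il33 had 1 each.

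IL-7, encoded by Il7, sustains naive T cells and innate lymphoid cells through a receptor that shares the common gamma chain with that of IL-15. IL-15 is needed by natural killer cells and memory CD8 T cells, and BAFF, the product of Tnfsf13b, by mature B cells. CSF-1 and IL-34 both act on the CSF-1 receptor of macrophages, FLT3 ligand on dendritic cells and their precursors, and stem cell factor, encoded by Kitl, on mast cells and haematopoietic progenitors. IL-33 is a nuclear alarmin of stromal cells that acts on ST2-bearing lymphocytes and mast cells once it is released.

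RNA came from FRCs of female C57BL/6 mice and was hybridised to 9 Illumina bead arrays, each holding the pooled FRCs of 2 brachial nodes of an animal. There were 3 groups of 3 arrays, named PBS, day 4 and day 11. The PBS nodes drained a site given PBS, and the others drained a tumour at 1 of those 2 times. The tumour, the age of the mice and the way FRCs were isolated are not given in the sources used here, and the PBS group carries no day. The PBS arrays serve as the control in both tumour comparisons.

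Of the 16 FRC and fibroblast markers, all were tested and 14 were detected on all 9 arrays, and detection means a detection p under 0.01 against the array's negative control beads. Leukocyte transcripts were present as well, with 3 of 4 general leukocyte markers detected on all 9 arrays, 2 of 7 measured myeloid markers and 1 of 3 measured B cell markers, while none of 5 measured T cell markers was. T cell transcripts were detected on some arrays, Cd3d on 7, Cd3e and Cd8a on 6 each, Cd3g on 3 and Cd4 on 1. Of 5 blood endothelial markers 2 were detected on no array (Cdh5 and Kdr), Esam on 1, Tie1 on 3 and Pecam1 on 4. Of 5 genes listed for lymphatic endothelium, Lyve1 was detected on none, Prox1 and Flt4 on 1 each, Madcam1 on 6 and Mmrn1 on all 9. Madcam1 is not specific to that cell type. Among 6 pericyte and smooth muscle markers, Acta2, Des and Rgs5 were detected on all 9 arrays, Myh11 and Cspg4 on 8 each and Itga7 on none. The mast cell markers Cpa3 and Mcpt4 were detected on none, Fcer1a on 1 and Kit on 3. Which cells these transcripts came from was not tested. Arrays differed in sensitivity: between 21.2% (day 11 replicate 3) and 38.9% (day 4 replicate 1) of probes were detected, and the lowest detected raw intensity ran from 96.2 to 138 on the PBS and day 4 arrays and from 149.96 to 236 on the day 11 arrays. PBS arrays correlated with each other across tested probes at 0.776 to 0.845, against 0.843 to 0.859 at day 4 and 0.912 to 0.932 at day 11.

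Levels are log2 intensities after background correction and quantile normalization, and a difference of 1 on this scale is a change by a factor of 2. Differences were tested with limma over all 9 arrays, with Benjamini-Hochberg adjustment over the 16577 probes detected on at least 3 arrays, at a threshold of 0.05. Of the 8 genes, 5 had a probe detected on all 9 arrays (Il7, Csf1, Kitl, Tnfsf13b and Il33), Il15 reached 7 arrays, Il34 reached 2 and Flt3l 1. The filter kept 12 of the 18 probes and 6 of the 8 genes, leaving out Il34 and Flt3l. Levels of different genes are not set against each other, because each probe has its own brightness.

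**Figure D1:**
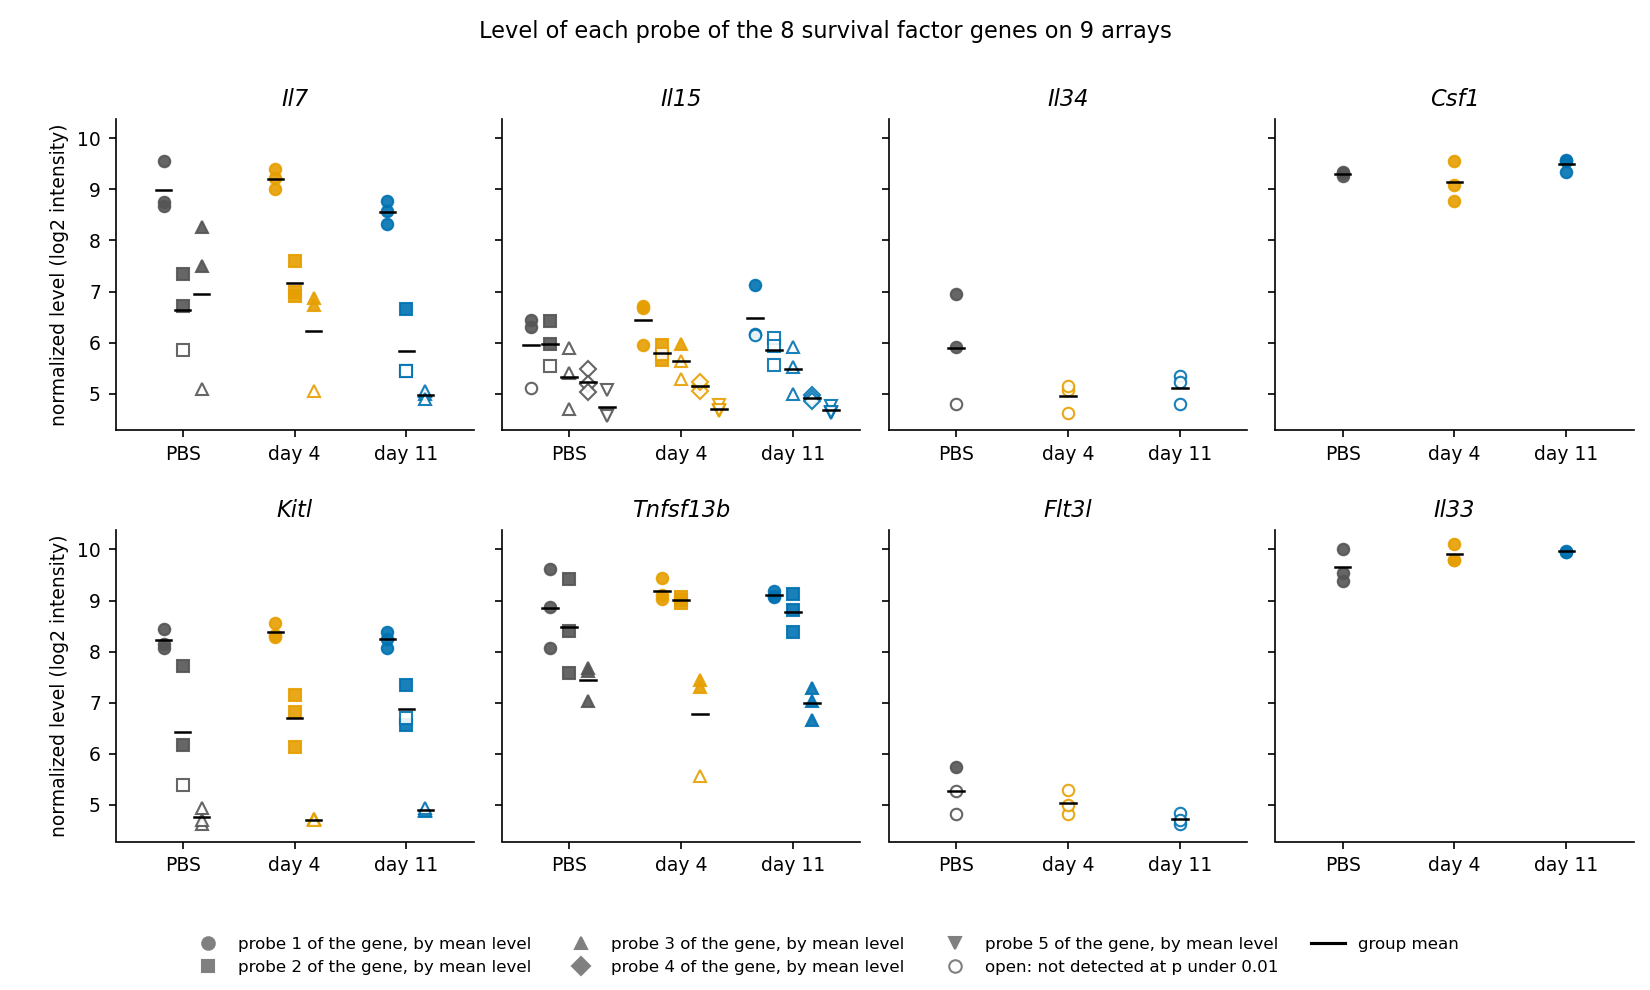
Normalized log2 intensity (y axis) of all 18 probes by group (x axis), with 1 point per array, filled where the probe was detected, and a black bar at each group mean of 3 arrays. Il7, Csf1, Kitl, Tnfsf13b and Il33 each have a probe detected on all 9 arrays, while the points of Il34 and Flt3l are mostly open.

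Among the lymphocyte factors, Il7 was expressed on every array. Its brightest probe (ILMN_2630852) read 9.56, 8.74 and 8.68 on the PBS arrays, 9.21, 9.02 and 9.40 at day 4, and 8.58, 8.77 and 8.33 at day 11. Every day 11 array lay below every day 4 array, while the PBS arrays spanned both, since PBS replicate 1 was the highest of all 9 and the other two lay among the day 11 values. Group means were highest at day 4 (9.21 ± 0.19, SD, n = 3), then PBS (8.99 ± 0.49), then day 11 (8.56 ± 0.22), and neither neighbouring pair differed beyond the spread.

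The log2 change of that Il7 probe was 0.21 ± 0.31 (SE) for day 4 against PBS (95% interval -0.48 to 0.91; limma adjusted p = 0.912), and ranged from 0.056 without PBS replicate 3 to 0.50 without PBS replicate 1. It was -0.43 ± 0.31 for day 11 against PBS (interval -1.13 to 0.26; limma adjusted p = 0.644), and without PBS replicate 1 it was -0.15. For day 11 against day 4 it was -0.65 ± 0.31 (interval -1.34 to 0.047; limma adjusted p = 0.776). None of these differences passed the threshold.

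The second Il7 probe (ILMN_1213727) read 6.72, 7.34 and 5.85 in PBS, 6.98, 6.91 and 7.59 at day 4, and 6.66, 5.44 and 5.44 at day 11. It was detected on 2 PBS arrays, all 3 day 4 arrays and 1 day 11 array. Measured values at day 11 were again below day 4 with no overlap, by -1.32 ± 0.46 (limma unadjusted p = 0.0167, adjusted p = 0.700). Day 11 replicates 2 and 3 were not detected, and their values lay under their arrays' lowest detected levels of 5.95 and 6.88. The size of this difference therefore rests in part on values below the detection limit. The change was 0.53 ± 0.46 for day 4 against PBS and -0.79 ± 0.46 for day 11 against PBS, and neither passed (limma adjusted p = 0.837 and 0.569).

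The third Il7 probe (ILMN_1248546) was detected in PBS replicates 1 and 2, with raw intensities of 214 and 377, and in day 4 replicates 1 and 3, with 166 and 196. It was not well above background on PBS replicate 3 (99.7), day 4 replicate 2 (101) or any day 11 array (118, 109 and 132). The 3 day 11 values lay below the median raw intensity of their own arrays, which were 128, 115 and 151. For this probe the PBS mean was at least 1.40-fold above day 11, with 2 of 3 PBS arrays detected (limma unadjusted p = 0.0240, adjusted p = 0.400), and the normalized means were 6.96 and 4.99. No bound could be set against day 4, whose mean of 6.22 was under the day 11 floor of 6.47 (limma adjusted p = 0.825).

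All 3 Il7 probes had their lowest measured mean at day 11, but for the third, undetected there, the order of day 4 and day 11 is not established. They differed in the order of PBS and day 4: the first and second were higher at day 4 and the third in PBS. A loss of detection at day 11 went together with a higher raw detection limit there. On the normalized scale the third probe read 6.74 on day 4 replicate 1, and the lowest detected levels of the day 11 arrays were 6.56, 5.95 and 6.88. On that scale the limit of PBS replicate 1, 6.50, was above that of day 11 replicate 2. The remaining PBS and day 4 arrays had limits of 5.57 to 5.88. The part of array sensitivity in the counts of detected arrays was not tested.

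**Figure D2:**
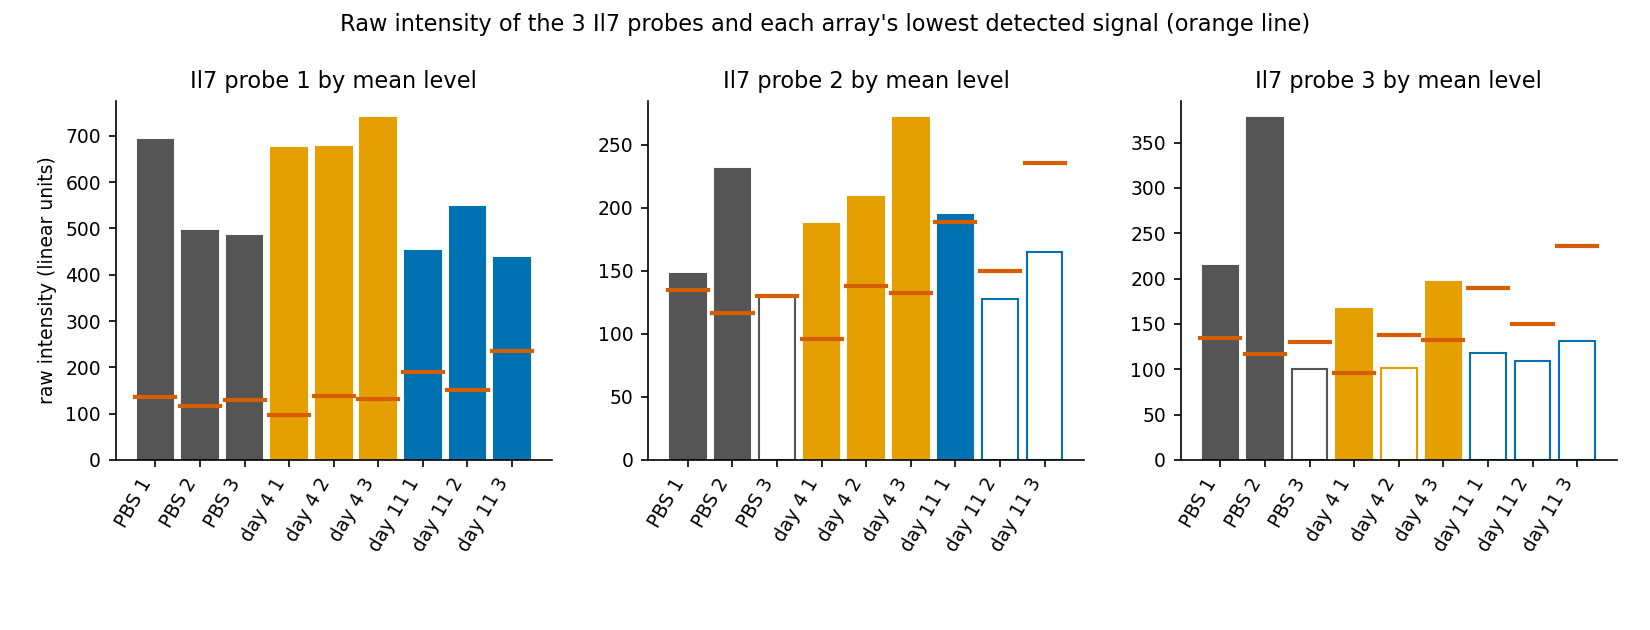
Raw intensity on a linear scale (bars, y axis) of the 3 Il7 probes on each of the 9 arrays (x axis), filled where detected and open where not, with an orange line at the lowest raw intensity detected on that array. The brightest probe clears the line on all 9 arrays, and the third probe stays under it on all 3 day 11 arrays.

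Il15 was dim. Its brightest probe (ILMN_2610234) was detected on 7 arrays and read 5.12, 6.44 and 6.31 in PBS, 5.94, 6.72 and 6.68 at day 4, and 7.14, 6.17 and 6.14 at day 11. The groups overlapped, and PBS replicate 1, not detected, was the lowest of the 9. The change was 0.49 ± 0.44 at day 4 and 0.53 ± 0.44 at day 11 against PBS (limma adjusted p = 0.846 and 0.693), and 0.037 ± 0.44 between the 2 days (interval -0.94 to 1.01; limma adjusted p = 0.995). Without PBS replicate 1 the changes from PBS were 0.069 and 0.11.

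The second Il15 probe (ILMN_2938704), detected on 4 arrays, gave -0.19 ± 0.30 at day 4 against PBS (limma adjusted p = 0.924), opposite in sign to the first. It was not well above background on any day 11 array, and no bound above 1 could be set from it there. The 3 remaining Il15 probes did not pass the filter. The first of them (ILMN_1219669) was detected on 1 array, day 4 replicate 1, and the other two on none.

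Tnfsf13b, the BAFF gene, was detected on all 9 arrays by its first and second probes. The brightest (ILMN_1226099) read 9.62, 8.87 and 8.07 in PBS, 9.03, 9.10 and 9.43 at day 4, and 9.18, 9.08 and 9.09 at day 11. The PBS arrays enclosed all 6 tumour arrays, with replicate 1 above and replicate 3 below every one of them. The SD was 0.77 in PBS against 0.21 at day 4 and 0.056 at day 11 (n = 3 each).

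The changes of this Tnfsf13b probe from PBS were 0.34 ± 0.37 at day 4 and 0.26 ± 0.37 at day 11 (limma adjusted p = 0.874 and 0.833), and -0.075 ± 0.37 between the days (limma adjusted p = 0.987). They rested on PBS replicate 3: without it they were -0.054 and -0.13 against PBS. The second probe (ILMN_2507286) gave 0.53 ± 0.43 and 0.30 ± 0.43 against PBS. The third probe (ILMN_1219140), detected on 8 arrays, went the other way with -0.67 ± 0.48 and -0.45 ± 0.48, and its lowest value was day 4 replicate 1 at 5.57 against 6.67 to 7.68 on the other 8 arrays. None of these passed (lowest limma adjusted p = 0.766).

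Among the factors for macrophages and dendritic cells, Csf1 was detected on all 9 arrays. Its probe (ILMN_1254561) read 9.26, 9.31 and 9.34 in PBS, 9.55, 9.08 and 8.78 at day 4, and 9.34, 9.58 and 9.55 at day 11. The PBS arrays lay close together and inside the day 4 range, and the day 11 arrays overlapped both groups. By group mean the order was day 11 (9.49 ± 0.13, SD, n = 3), PBS (9.30 ± 0.044) and day 4 (9.14 ± 0.39), and neither neighbouring pair passed the threshold.

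The log2 change of Csf1 was -0.17 ± 0.28 at day 4 against PBS (interval -0.78 to 0.45; limma adjusted p = 0.926) and 0.19 ± 0.28 at day 11 (interval -0.43 to 0.80; limma adjusted p = 0.841). For day 11 against day 4 it was 0.35 ± 0.28 (interval -0.27 to 0.97; limma adjusted p = 0.873), with 0.17 without day 4 replicate 3 and 0.56 without day 4 replicate 1. The sign at day 4 depended on day 4 replicate 3, without which the change was 0.016.

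Il34, the alternative ligand of the CSF-1 receptor, was detected only in PBS replicates 1 and 2, at raw intensities of 163 and 126. The other 7 arrays read 86 in PBS replicate 3, 63, 102 and 105 at day 4, and 137, 118 and 121 at day 11. Il34 was not well above background in either tumour group, so it has only a bound there. With 2 of 3 PBS arrays detected, the PBS mean was at least 1.09-fold above day 4 (normalized means 5.89 and 4.95), and no bound above 1 could be set against day 11 (mean 5.12). The groups overlapped, with PBS replicate 3 at 4.81, below day 4 replicates 2 and 3 at 5.07 and 5.15. Fitted with no filter on dim probes, neither difference passed (limma adjusted p = 0.864 and 0.756).

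Flt3l, which encodes the dendritic cell growth factor FLT3 ligand, was detected on 1 array, PBS replicate 2, at a raw intensity of 118. The other 2 PBS arrays read 79 and 107, the day 4 arrays 85, 87 and 98, and the day 11 arrays 107, 77 and 111. All of these lay near background, and no fold could be given. Fitted with no filter, Flt3l did not pass in any comparison (lowest limma adjusted p = 0.636).

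Kitl, the gene of stem cell factor, was by brightest probe the steadiest of the 6 tested genes within groups, with a residual SD of 0.168 on the log2 scale. Its brightest probe (ILMN_2676022) read 8.45, 8.07 and 8.15 in PBS, 8.33, 8.56 and 8.29 at day 4, and 8.08, 8.39 and 8.24 at day 11. All 3 groups overlapped and their means lay within 0.17 of each other. For day 11 against PBS the change was 0.017 ± 0.26 with a 95% interval from -0.55 to 0.59 (limma adjusted p = 0.987). Day 4 against PBS gave 0.17 ± 0.26 and day 11 against day 4 gave -0.15 ± 0.26 (limma adjusted p = 0.913 and 0.960).

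The second Kitl probe (ILMN_2751988) was detected on 7 arrays and spread more widely, with a residual SD of 0.789 and a range from 5.39 to 7.72 within PBS alone. It gave 0.27 ± 0.55 and 0.45 ± 0.55 against PBS (limma adjusted p = 0.941 and 0.804). The third Kitl probe (ILMN_1251500) was detected on no array.

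Il33, the alarmin gene, was detected on all 9 arrays by its only probe (ILMN_1259747). It read 9.54, 10.02 and 9.39 in PBS, 9.80, 10.10 and 9.80 at day 4, and 9.95, 9.96 and 9.97 at day 11. PBS replicate 2 lay among the tumour arrays and the other 2 PBS arrays below all 6 of them. The means were 9.65 ± 0.33, 9.90 ± 0.17 and 9.96 ± 0.013 (SD, n = 3), in the order PBS, day 4, day 11, and neighbours did not differ beyond their spread.

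The change of Il33 from PBS was 0.26 ± 0.27 at day 4 (interval -0.34 to 0.85; limma adjusted p = 0.869) and 0.31 ± 0.27 at day 11 (interval -0.29 to 0.91; limma adjusted p = 0.704). Between the days it was 0.057 ± 0.27 (limma adjusted p = 0.987). Leaving out any 1 array kept the change at day 11 between 0.18 and 0.49.

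**Figure D3:**
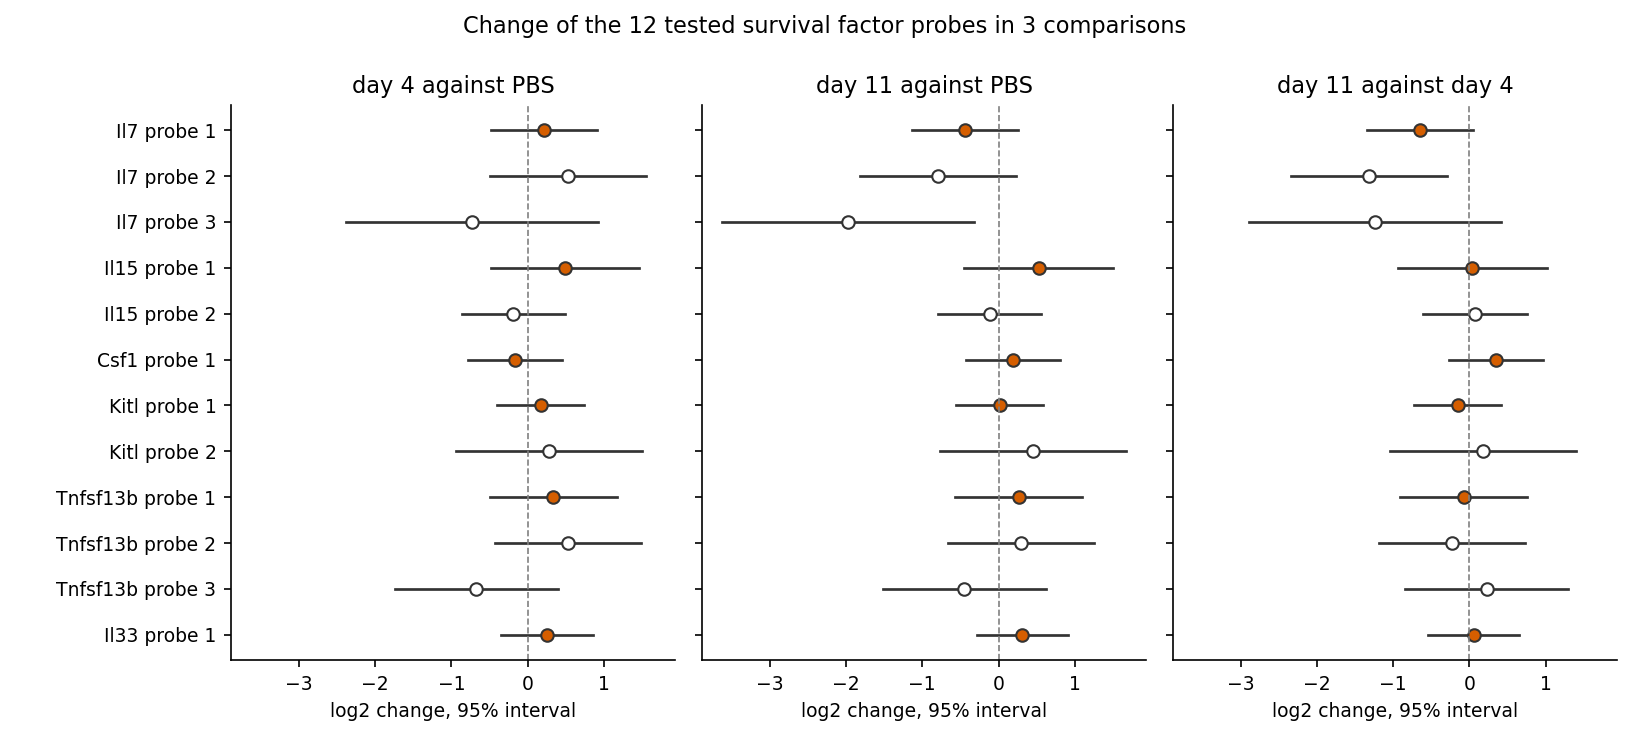
Log2 change with its 95% interval (x axis) of the 12 tested probes (y axis) in the 3 comparisons, with the brightest probe of each gene filled and the others open. The intervals of all 6 filled points include 0 in every panel, and 2 open points have an interval that does not. These are the third Il7 probe for day 11 against PBS and the second Il7 probe for day 11 against day 4. At day 11 the third was not well above background, and the second was detected on 1 array.

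Counted by brightest probe, 0 of the 6 tested genes passed the threshold at day 4 against PBS in limma, 0 at day 11 against PBS and 0 at day 11 against day 4. The background was 0% of 8819 genes at day 4, 0.0113% at day 11 and 0.0113% between the days, so a count of 0 is at the background. At an unadjusted p under 0.05 the count was 0 of 6 in each comparison, where 7.99%, 10.3% and 6.45% of all genes lay. Among the 12 tested probes 0 passed in each comparison, against 0%, 0.00603% and 0.00603% of all probes. At an unadjusted p under 0.05 there were 0, 1 and 1, against 7.89%, 10.4% and 6.65%.

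A single F test over the 3 groups gave 0 of 6 genes, with a lowest adjusted p of 0.659 for Il7 (limma), against 0.0113% of all genes, and 0 at an unadjusted p under 0.05, against 9.29%. Of the 12 probes, 0 passed the F test, against 0.00603% of all probes, and 1, the second Il7 probe, had an unadjusted p under 0.05 (limma unadjusted p = 0.0483, adjusted p = 0.540), against 9.23%. For day 11 against day 4, 1 of 6 genes, Il7, was lower with no overlap between groups, as were 7.6% of all genes, and 0 were higher with no overlap, against 7.9%. Against PBS, 0 of 6 genes separated the groups in either direction at day 4, where 4.31% of all genes were lower and 6.23% higher without overlap, and 0 at day 11, where the shares were 7.26% and 10.9%.

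Of the 6 genes, 5 had a higher mean than PBS at day 4, all but Csf1, as did 53.8% of all genes, with a median log2 change of 0.23 against 0.045 over all genes. At day 11 5 of 6 were higher than PBS, all but Il7, as were 54.1% of all genes, with a median of 0.22 against 0.053. Both counts share the PBS arrays. Between day 4 and day 11, 3 were higher and 3 lower, with a median of -0.019 against 0.015.

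**Figure D4:**
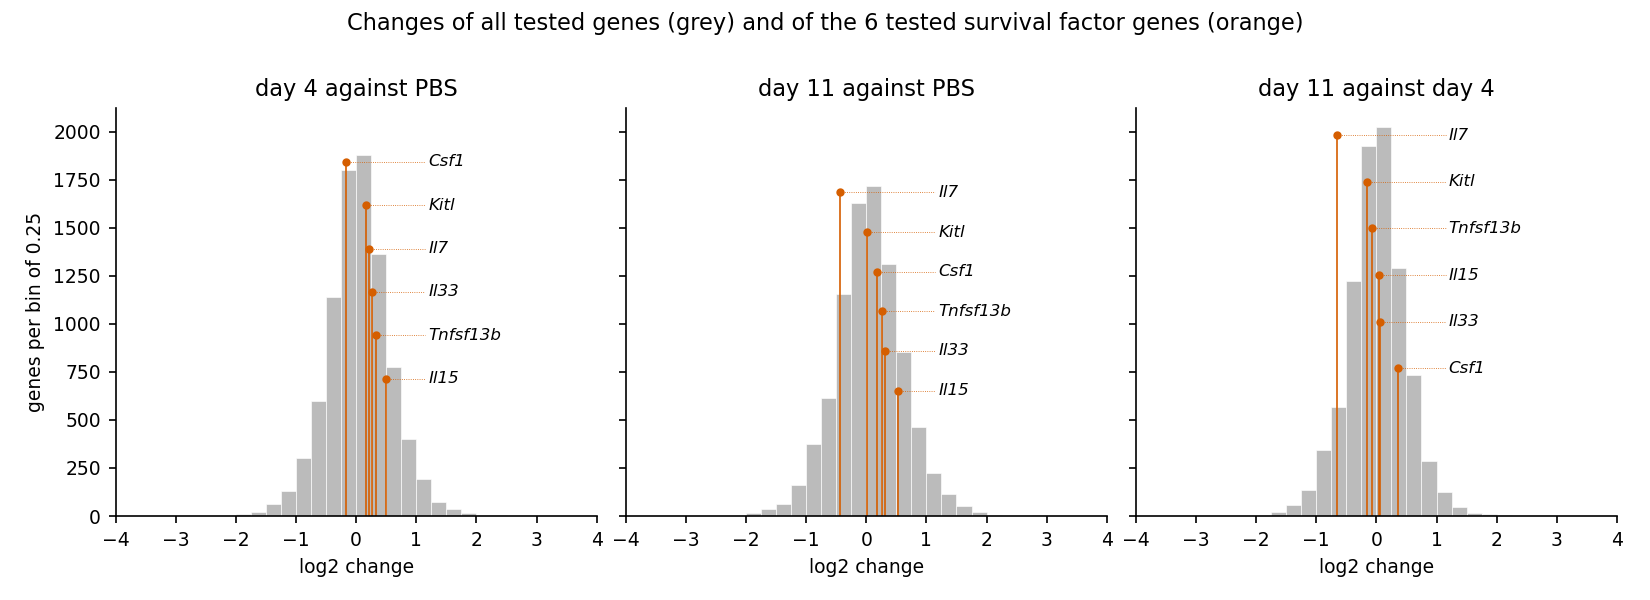
Number of genes (y axis, grey) by log2 change (x axis, bins of 0.25) for all 8819 tested genes, with the 6 tested survival factor genes marked by labelled orange lines whose heights only separate the labels. All 6 lie within the bulk of the grey distribution, and Il7 is the lowest of them in both panels that include day 11.

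**Figure D5:**
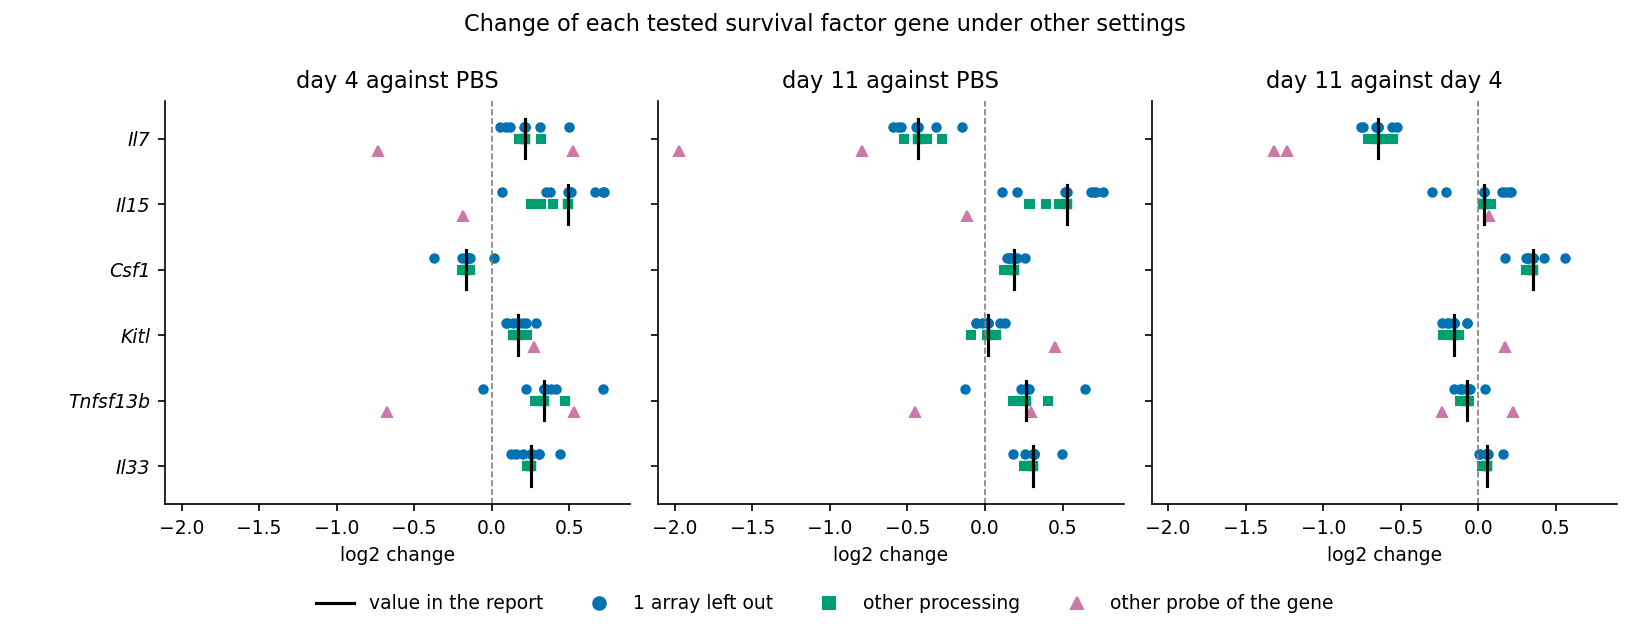
Log2 change (x axis) of the brightest probe of each tested gene (y axis) in the 3 comparisons, with a black bar for the value given above, circles for 1 array left out, squares for other processing and triangles for another probe of the gene. Il7 stays below 0 in both panels that include day 11, and the triangles of Tnfsf13b fall on both sides of 0.

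The receptors and signal carriers of these factors were described as a list of 20 genes, of which 18 had a probe and 14 were tested. None passed in any of the 3 comparisons (limma), and at an unadjusted p under 0.05 there were 0, 0 and 1, where 7.99%, 10.3% and 6.45% of all genes lay. Il7r, the IL-7 receptor alpha chain, was that 1, and was detected on all 9 arrays. It read 8.07, 7.45 and 7.26 in PBS, 5.62, 6.71 and 7.47 at day 4, and 7.98, 8.73 and 6.92 at day 11, with overlap between all groups. Its change for day 11 against day 4 was 1.27 ± 0.55 (limma adjusted p = 0.739), in the opposite direction to that of Il7.

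The lowest p-values at day 4 belonged to Cish, a feedback inhibitor induced by STAT5 (0.97 ± 0.52; limma adjusted p = 0.693), and Il1rap, the accessory chain of the IL-33 receptor (0.96 ± 0.52; limma adjusted p = 0.696). At day 11 against PBS they belonged to Il1rap (limma adjusted p = 0.565) and Il15ra, the chain that presents IL-15 (1.05 ± 0.62; limma adjusted p = 0.571). Il1rap was detected on 3 arrays, 1 in PBS and 2 at day 4, and was not well above background at day 11, so no fold is given there. Flt3, the receptor of FLT3 ligand, had 1.32 ± 0.86 between the days (limma adjusted p = 0.833).

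Of 14 further stromal cytokine and niche genes, 9 were tested and none passed in limma in the 3 comparisons, also at an unadjusted p under 0.05. Between day 4 and day 11, 8 of the 9 had a lower measured mean and 1 a higher one, with a median of -0.31. Of all genes 51.5% were higher, and their median was 0.015. Dll4 is counted among the 8, though its direction is not established, since it was detected on no day 11 array. Tslp, a cytokine related to IL-7, had the lowest p at day 4 against PBS (0.58 ± 0.36; limma adjusted p = 0.740) and between the days (-0.47 ± 0.36; limma adjusted p = 0.870). At day 4 it was followed by the growth factor gene Igf1 (-0.37 ± 0.27), and between the days by the Notch ligand gene Jag1 (-0.28 ± 0.24). At day 11 against PBS the lowest belonged to the Notch ligand gene Dll4 (limma adjusted p = 0.517) and the vascular growth factor gene Vegfa (-0.38 ± 0.29; limma adjusted p = 0.677). Dll4 was detected on 3 arrays, 2 in PBS and 1 at day 4, and was not well above background at day 11, and no bound above 1 could be set for it.

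Tnfsf13b, Il15 and Flt3l are also made by leukocytes, so leukocyte transcripts were set beside them. The summed normalized intensity of the 7 measured myeloid markers was 1439 to 1864 in PBS, 654 to 1201 at day 4 and 1541 to 2400 at day 11. This sum weighs bright probes most, here Lyz2 and Tyrobp, with log2 means of 10.06 and 9.37 at day 11 against 9.77 and 8.80 in PBS. Itgax and Itgam also had a higher mean at day 11. Fcer1g (5.84 against 6.51), Csf1r (4.79 against 6.09) and Adgre1 (4.98 against 5.47) had a lower one. Csf1r was detected on 2 arrays and Adgre1 on 1. The 4 general leukocyte markers, of which Laptm5 was by far the brightest, summed to 2789 to 3380, 1610 to 3039 and 2169 to 4650 in the same order of groups. The 5 measured T cell markers summed to 416 to 520, 198 to 410 and 286 to 592, and the 3 measured B cell markers to 180 to 418, 159 to 311 and 269 to 455. The myeloid marker Itgam was detected on no array. The part of these cells in the members' levels was not tested, and in such bulk samples fewer cells of a type and less RNA per cell cannot be told apart.

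For each gene with a probe detected on all 9 arrays, the 3 genes of most similar pattern were taken by Pearson correlation over the 9 arrays, among 4478 others detected on all 9, with clone and locus identifiers left out. The correlation includes differences between arrays that all genes share, and with so many genes set against 9 arrays it is a description. Il7 was most like Pla2g15 (0.907), Csrnp2 (0.895) and Nin (0.889). Csf1 was most like Cdkn2d (0.946), Nras (0.915) and Zfp655 (0.894), and Kitl was most like H3f3b (0.924), Sardh (0.890) and Rwdd4a (0.889). None of these was one of the 8 genes. Tnfsf13b was most like Ssr4 (0.969), Pdlim5 (0.949) and Setd2 (0.930), and Il33 was most like Trir (0.968), Psma7 (0.948) and Commd7 (0.944).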

How the data were processed

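Bead intensities of 45281 probes were deposited as raw intensity on a linear scale, and the deposited table gives a detection p-value beside each, both per the file headers. Values processed by the authors, used as an alternative, are also deposited intensities on a linear scale, with 1 shared distribution over the 9 arrays. The deposited processing note names lumi, a filter on detection, a variance-stabilizing transformation, quantile normalization and limma. It is not known here how it led to these linear values.

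Here, raw intensities went through the neqc function (limma 3.58.1, R 4.3.3; background from detection p-values, offset 16, quantile, log2) and were fitted with lmFit and eBayes over 9 arrays, with 6 residual degrees of freedom. Adjusted p-values are from this limma fit, and 95% intervals are unadjusted. A gene was counted by its tested probe with the highest mean, and every other probe is given beside it. Symbols came from the platform annotation, with 34885 probes having 1 symbol, 18 several and 10378 none here. Of these symbols 34807 were matched by gene identifier to RefSeq's gene table of GRCm38.p6, used only for names. Where no array of a group detected a probe, only a bound is given. It sets the mean of the brighter group against a floor, the mean over the dimmer group's arrays of the lowest detected signal, or of the probe's own signal where that was higher. Undetected arrays of the brighter group keep their measured signal. The bound compares means only and does not allow for the spread between arrays.

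The text names all 8 genes and, of the receptor and cytokine lists, genes that passed and the 2 with the lowest p in each comparison. Csf1r and Kit are named only as cell type markers. Members and lists were chosen with earlier results of these data known. Alternatives were no background correction, 75th percentile scaling, the authors' values, other filters, a variance prior that follows intensity, a replicate block, array weights, fits of 2 groups alone, other probes and leaving out each array. Slides are not given, so no slide block was fitted. The fit was tested on simulated data. The number of arrays limits the precision.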

Additional observations from a re-analysis of the deposited data

Results flagged for a closer look

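On its brightest probe Il7 lay above the PBS mean on all 3 day 4 arrays and below it on all 3 day 11 arrays. The PBS mean of 8.99 included the high PBS replicate 1, and without it the mean was 8.71, with all 3 day 4 arrays above it, 2 day 11 arrays below it and 1 above. The difference between the days was tested and did not pass, with a log2 change of -0.65 (limma adjusted p = 0.776). A probe of Il15 outside the comparisons (ILMN_1219669) was detected on 1 tumour array, day 4 replicate 1, at a log2 level of 5.98 and a detection p of 0.00214. It was detected on no PBS array, where its highest level was 5.89, on PBS replicate 1. The lowest detected level was 6.50 on PBS replicate 1 and 5.57 on day 4 replicate 1. The part of array sensitivity in this detection was not tested.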

How the results depend on the processing

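No survival factor gene passed under any alternative in any comparison, and the lowest adjusted p among 360 alternative log2 changes was 0.400, for the third Il7 probe. Of these 360, 343 kept their direction and 17 changed it, 9 by leaving out an array, 7 by taking another probe of the gene and 1 otherwise. Other filters, the variance prior, the replicate block and fits of 2 groups alone cannot move a log2 change here. Their unchanged values are counted among the 343 and in the counts of alternatives per gene below. Leaving out an array of the group not compared moved a change little. The measured change of Il7 for day 11 against day 4 was below 0 under all 21 alternatives, from -1.32 to -0.53. For day 11 against PBS it was also below 0 under all 21, from -0.79 to -0.15 apart from the third probe. Values of -1.32 and -0.79 came from the second probe, which was not detected on day 11 replicates 2 and 3. The third probe, not well above background at day 11, is counted among the 21 and has only a bound against PBS. Against day 4 no bound could be set for it, so its direction between the days is not established. Il33 was above PBS at both days under all 19. The 1 processing setting that turned a sign was 75th percentile scaling, with Kitl at -0.089 for day 11 against PBS. Another probe gave -0.73 for Il7 at day 4 against PBS, -0.19 and -0.11 for Il15 at day 4 and day 11 against PBS (the latter from a probe not well above background at day 11), 0.17 for Kitl between the days, and -0.67, -0.45 and 0.22 for Tnfsf13b at day 4, at day 11 and between the days. Leaving out 1 array gave a range of -0.37 to 0.016 for Csf1 at day 4 and -0.30 to 0.21 for Il15 between the days. For Kitl at day 11 against PBS it was -0.060 to 0.13. For Tnfsf13b the range was -0.054 to 0.72 at day 4, -0.13 to 0.65 at day 11 and -0.15 to 0.046 between the days. The causes were not tested.

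Over all probes, 0 passed at day 4 against PBS under all 19 alternatives and in the reported fit, and 1 each at day 11 against PBS, between the days and in the F test. These counts were 18, 4 and 7 with a variance prior that follows intensity and 0, 0 and 0 with no filter. Fitting only the 2 groups compared gave 0 in both comparisons with a call, and array weights gave 2 between the days. Leaving out 1 array gave 0 at day 11 against PBS, 0 to 2 between the days and 0 to 1 in the F test. With the replicate number as a block the counts were 0, 0 and 0. Deviations of same-numbered arrays correlated at -0.046 to 0.063 over 9 pairs, against -0.040 to 0.034 over the 18 pairs with different numbers. The 2 ranges largely overlapped, with the highest value in a same-numbered pair. Low correlations cannot exclude that same-numbered arrays were handled as a set, so no conclusion on pairing is drawn.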

Other observations

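Probes of 1 gene did not always follow each other over the 9 arrays. The first and second Tnfsf13b probes correlated at a Pearson r of 0.923, while the third correlated with them at -0.063 and -0.28. The 2 tested Kitl probes correlated at -0.43. The 3 Il7 probes correlated with each other at 0.584 to 0.697 and the 2 tested Il15 probes at 0.551. These are descriptions over arrays that share their normalization, and the sequences of the probes were not used here.

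The residual SD within groups was 0.168 for Kitl, 0.214 for Il33, 0.240 for Csf1 and 0.331 for Il7 by brightest probe, below the median of 0.358 over probes detected on all 9 arrays. That of Tnfsf13b, 0.465, was above it.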
